A study of Rattus norvegicus with 74 samples.

Results

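Livers of 22-day-old rat pups exposed to DE-71 at 15 mg/kg were compared with livers of pups from the DE-71 0 mg/kg group. DE-71 is a commercial flame retardant, a mixture of brominated diphenyl ethers. The comparison uses the 5 arrays labelled DE-71 15 mg/kg and the 5 labelled DE-71 0 mg/kg, 10 of the 74 arrays of the series. Replicates 1 and 2 at 15 mg/kg were nearly identical and were averaged to 1 sample, so 4 treated samples stand against 5 controls.

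All of these animals were Wistar Han rats (Crl:WI (Han)), and both groups went through oral gavage, of the dams from gestation day 6 to 21 and of the pups from postnatal day 12 to 21. The left liver lobe was taken on postnatal day 22, and its RNA was read on an Affymetrix rat expression array. Litter and sex of each pup are not given, and p-values therefore cover only how samples vary within groups. That spread was estimated over all 15 groups of the series, among them PCB126 and phenobarbital groups that are not described here. The other groups set beside the comparison were DE-71 at 0.1 mg/kg (5 arrays) and 50 mg/kg (4 arrays), and PBDE-47, a single brominated diphenyl ether congener that is a main component of DE-71, at 0 and 15 mg/kg (5 arrays each), all on the same strain and schedule.

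The liver meets foreign compounds with a shared program of enzymes and pumps. The aryl hydrocarbon receptor (AhR), bound by planar aromatic compounds, drives Cyp1a1, Cyp1a2 and Cyp1b1. The nuclear receptors CAR and PXR, which respond to many drugs and to non-planar halogenated compounds, drive P450s of the Cyp2 and Cyp3a families together with carboxylesterases, glucuronosyltransferases and efflux pumps, and NRF2 drives genes against electrophiles and oxidants. The same conjugating enzymes and pumps also clear thyroid hormone from the circulation.

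Values are log2 expression after robust multi-array averaging (RMA), 1 probe set for each of 14217 genes, and a difference of 1 on this scale is a doubling. A gene is called changed at a limma p-value below 0.05 after Benjamini-Hochberg adjustment over all 14217 genes, and "rose" or "fell" is used for called genes only. Where single values are listed, the controls come in the order of replicates 1 to 5, and the treated samples in the order of the averaged replicates 1 and 2, then 3, 4 and 5.

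Replicates 1 and 2 at 15 mg/kg differed by a root mean square of 0.20 log2 units over the 300 most variable well expressed genes, against 0.58 to 0.82 for the other pairs of arrays in that group. Replicate 5 at 15 mg/kg differed by only 0.12 from replicate 4 at 50 mg/kg, which carries another dose label, so calls that end without it are named. A similar pair joins PBDE-47 15 mg/kg replicate 3 and PBDE-47 50 mg/kg replicate 3 (0.10), and replicates 3 and 4 of PBDE-47 0 mg/kg (0.16) were averaged. Albumin (Alb), a hepatocyte gene, was high in all 9 samples, between 14.75 and 14.79. None of the 13 measured hepatocyte markers was called, which concerns the difference between the groups and does not test the tissue label. Xist lay between 2.86 and 3.14 and the Y-linked Uty between 7.19 and 8.07, so the samples did not split on these genes. Array medians of the DE-71 0 and 15 mg/kg groups spanned 4.84 to 4.91.

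At 15 mg/kg DE-71, 177 genes were called, of which 143 rose (1.01% of the genes tested) and 34 fell (0.239%). Rises were also the larger changes, with 38 genes at least 2-fold up and 5 at least 2-fold down. The 5 control and 4 treated values did not overlap for 429 genes (3.02% of all), and for 136 of the 177 called ones. The median gene shifted by -0.02. Leaving out replicate 5, the array that matches another dose, left 132 genes called, 124 of them among the 177. With the DE-71 arrays alone 43 genes were called, 42 of them among the 177. The median SD over genes was 0.20 within the 4 DE-71 groups and 0.18 within all 15. By group it was 0.18 at 0 mg/kg and 0.15 at 15 mg/kg, and 0.20 at 0.1 mg/kg and 0.21 at 50 mg/kg. What lowered the count was not tested.

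**Figure D1:**
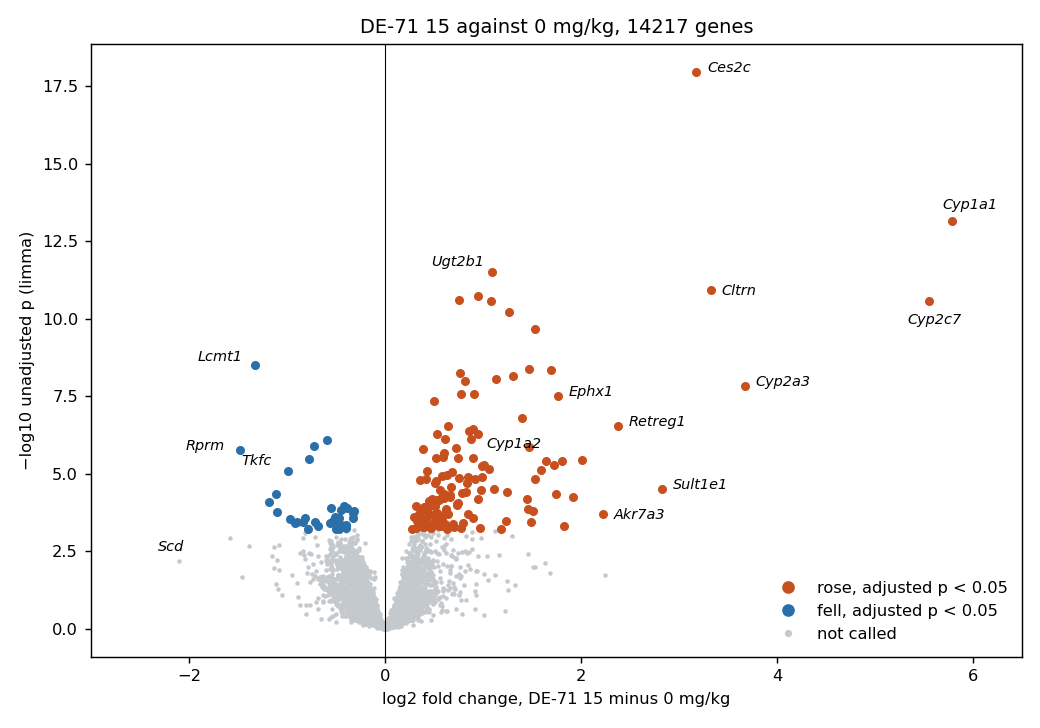
Each point is 1 of 14217 genes. The x axis gives the log2 fold change of DE-71 15 against 0 mg/kg and the y axis the −log10 of the unadjusted limma p-value. The 143 genes that rose (orange) reach a log2 fold change of 5.78 for Cyp1a1, the 34 that fell (blue) reach -1.48 for Rprm, and Scd at -2.10 was not called.

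Of the AhR-driven P450s, Cyp1a1 and Cyp1a2 rose and Cyp1b1 was not called. Cyp1a1, the hydroxylase that is the classic readout of AhR activation, read 6.80, 4.41, 8.05, 7.69 and 7.59 in the controls and 13.38, 12.57, 11.84 and 12.97 at 15 mg/kg. Every treated sample lay far above every control, and the controls themselves spread over more than 3 log2 units, with replicate 2 lowest. The rise was 54.9-fold (log2 difference 5.78, 95% confidence interval 4.58 to 6.98, adjusted p = 5.08e-10), and it was called in each of the 9 fits that left out a sample. The size depends on control replicate 2, without which the rise was 35.6-fold (log2 5.15). Cyp1a2, the liver's constitutive partner of Cyp1a1, read 12.24, 12.17, 12.53, 12.88 and 13.19 in the controls and 13.81, 13.48, 13.14 and 13.76 in the treated samples. The groups met at 1 point, since treated replicate 4 lay just under control replicate 5. Its rise was 1.93-fold (log2 0.95, 0.61 to 1.28, adjusted p = 0.00025; 0.00357 without replicate 5 and 0.108 with the DE-71 arrays alone).

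Cyp1b1, the third AhR-driven P450, read 5.14, 5.08, 5.02, 5.07 and 4.81 in the controls and 7.45, 4.77, 5.05 and 7.02 at 15 mg/kg. The averaged replicates 1 and 2 and replicate 5 were high, while replicates 3 and 4 lay at the control level (log2 difference 1.05, 0.13 to 1.97, adjusted p = 0.384). Inmt, an indole N-methyltransferase on the AhR list, rose 2.85-fold (log2 1.51, adjusted p = 0.0204; 0.0893 without replicate 5 and 0.382 with the DE-71 arrays alone). Nqo1, a quinone reductase that both AhR and NRF2 drive, read 10.86, 10.56, 9.97, 10.18 and 10.18 in the controls and 12.08, 11.32, 11.53 and 11.64 in the treated samples. All treated values were above all controls, and the difference of 1.29 (0.54 to 2.04) missed the threshold (adjusted p = 0.0729) but passed with the DE-71 arrays alone (0.00743). In all, 3 of 14 measured AhR targets rose and none fell, with a list median of 0.25 against -0.02 over all genes. Other textbook targets were flat, among them Tiparp (-0.27, -0.56 to 0.02), the repressor Ahrr (0.00, -0.19 to 0.19) and Aldh3a1 (-0.01, -0.57 to 0.56). The receptor itself, Ahr, differed by 1.04 (adjusted p = 0.170) on its brighter probe set and by 0.07 on its other one, so the 2 probe sets disagree.

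The stretch of 250 bases before the annotated start is shown for both of the AhR-driven P450s with an entry in the promoter table, because 1 was called and 1 was not, and for 2 genes of the NRF2 list that rose, Akr7a3 and Me1. The sequences are RefSeq's on the GRCr8 assembly, written 5′ to 3′ on the gene's strand. Capitals mark GCGTG, the core of the AhR response element, on either strand in the first 3 sequences, and TGACNNNGC, the core of the antioxidant response element bound by NRF2, in the last. Akr7a3 holds 0 matches to TGACNNNGC, and Me1 holds 2 matches to GCGTG that are left in lower case.
Cyp1a2 (chr8:66978150-66978399, minus strand): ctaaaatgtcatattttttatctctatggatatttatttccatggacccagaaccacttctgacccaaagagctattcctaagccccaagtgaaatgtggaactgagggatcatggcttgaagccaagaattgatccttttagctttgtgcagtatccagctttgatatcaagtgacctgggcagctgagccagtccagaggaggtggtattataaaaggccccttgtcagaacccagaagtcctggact
Cyp1b1 (chr6:21094315-21094564, plus strand): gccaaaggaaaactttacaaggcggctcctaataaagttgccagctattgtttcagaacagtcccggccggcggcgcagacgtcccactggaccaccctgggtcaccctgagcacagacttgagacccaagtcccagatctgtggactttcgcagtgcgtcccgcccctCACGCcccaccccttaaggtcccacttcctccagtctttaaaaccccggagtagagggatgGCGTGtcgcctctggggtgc
Akr7a3 (chr5:156876471-156876720, plus strand): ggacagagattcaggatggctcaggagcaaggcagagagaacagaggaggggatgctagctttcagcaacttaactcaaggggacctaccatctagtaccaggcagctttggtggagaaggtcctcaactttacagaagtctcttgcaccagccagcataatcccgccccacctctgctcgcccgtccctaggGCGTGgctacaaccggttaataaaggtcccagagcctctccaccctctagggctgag
Me1 (chr8:96540245-96540494, minus strand): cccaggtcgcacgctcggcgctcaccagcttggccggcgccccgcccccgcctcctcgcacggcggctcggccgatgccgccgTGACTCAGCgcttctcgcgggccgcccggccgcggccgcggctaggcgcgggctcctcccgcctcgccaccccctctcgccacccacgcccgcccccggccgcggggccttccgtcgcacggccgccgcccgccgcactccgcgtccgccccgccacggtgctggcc

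Cyp1b1 holds 2 matches to GCGTG in this window and Cyp1a2 holds 0, although Cyp1a2 rose and Cyp1b1 was not called. A match is a run of letters and not a shown binding site, and response elements farther from the start lie outside the window. Many promoters hold GCGTG: 25.9% of all 33469 windows in the table hold it on at least 1 strand. Among the tested genes with an entry the share was 42.0%, and among the 122 risen genes with an entry it was 48 genes (39.3%). Among the 30 fallen genes with an entry 17 held it (56.7%). TGACNNNGC occurred in 13.0% of tested genes with an entry in 22 of the 122 risen genes (18%) and in 4 of the 30 fallen ones (13.3%). These shares are given as descriptions, with no test.

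Among the P450s driven by CAR and PXR, 5 of 18 measured members rose and none fell, with a list median of 0.25. Cyp2c7, a P450 that marks adult female rat liver, read 5.34, 8.45, 7.63, 8.85 and 7.13 in the controls and 12.94, 13.12, 13.10 and 12.96 at 15 mg/kg. The treated samples lay within 0.2 log2 units of each other while the controls spread widely, with replicate 1 lowest, and the rise was 46.8-fold (log2 5.55, 4.18 to 6.92, adjusted p = 4.69e-08). Cyp2a3 read 5.66, 6.28, 7.31, 8.20 and 6.30 in the controls and 11.57, 10.62, 9.26 and 10.23 in the treated samples, a 12.7-fold rise (log2 3.67, 2.54 to 4.80, adjusted p = 1.18e-05) with no overlap. Cyp3a23-3a1, the main PXR-inducible P450 of the rat, was already high in the controls (12.84 ± 0.11, SD, n = 5) and rose 1.93-fold to 13.79 ± 0.15 (n = 4). Cyp2c6v1 moved with little spread, from 13.16 ± 0.13 to 13.91 ± 0.03 (1.69-fold).

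Cyp2c11, the P450 that marks adult male rat liver, rose 4.02-fold (log2 2.01, adjusted p = 0.00115; 0.00203 without replicate 5 and 0.144 with the DE-71 arrays alone). It read 6.22, 6.57, 5.73, 7.08 and 6.67 in the controls and 7.66, 8.67, 9.45 and 8.06 in the treated samples, again without overlap. Genes that mark the liver of either adult sex therefore rose, and 3 of 19 measured sex-biased genes were called: Cyp2c7, Cyp2c11 and the estrogen sulfotransferase Sult1e1. The female-predominant Cyp2c12 was among those not called (0.16, -0.27 to 0.59). Several relatives of the induced P450s gave small differences, such as Cyp2e1 at -0.07 (-0.22 to 0.09). Cyp2b1 and Cyp2b2, the best known CAR targets, share a probe set, which entered only the count of probe sets with several symbols, and no value is given for either gene. Cyp2c7, Cyp2a3, Cyp3a23-3a1 and Cyp2c6v1 stayed called in all 9 fits without a sample and with the DE-71 arrays alone.

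**Figure D2:**
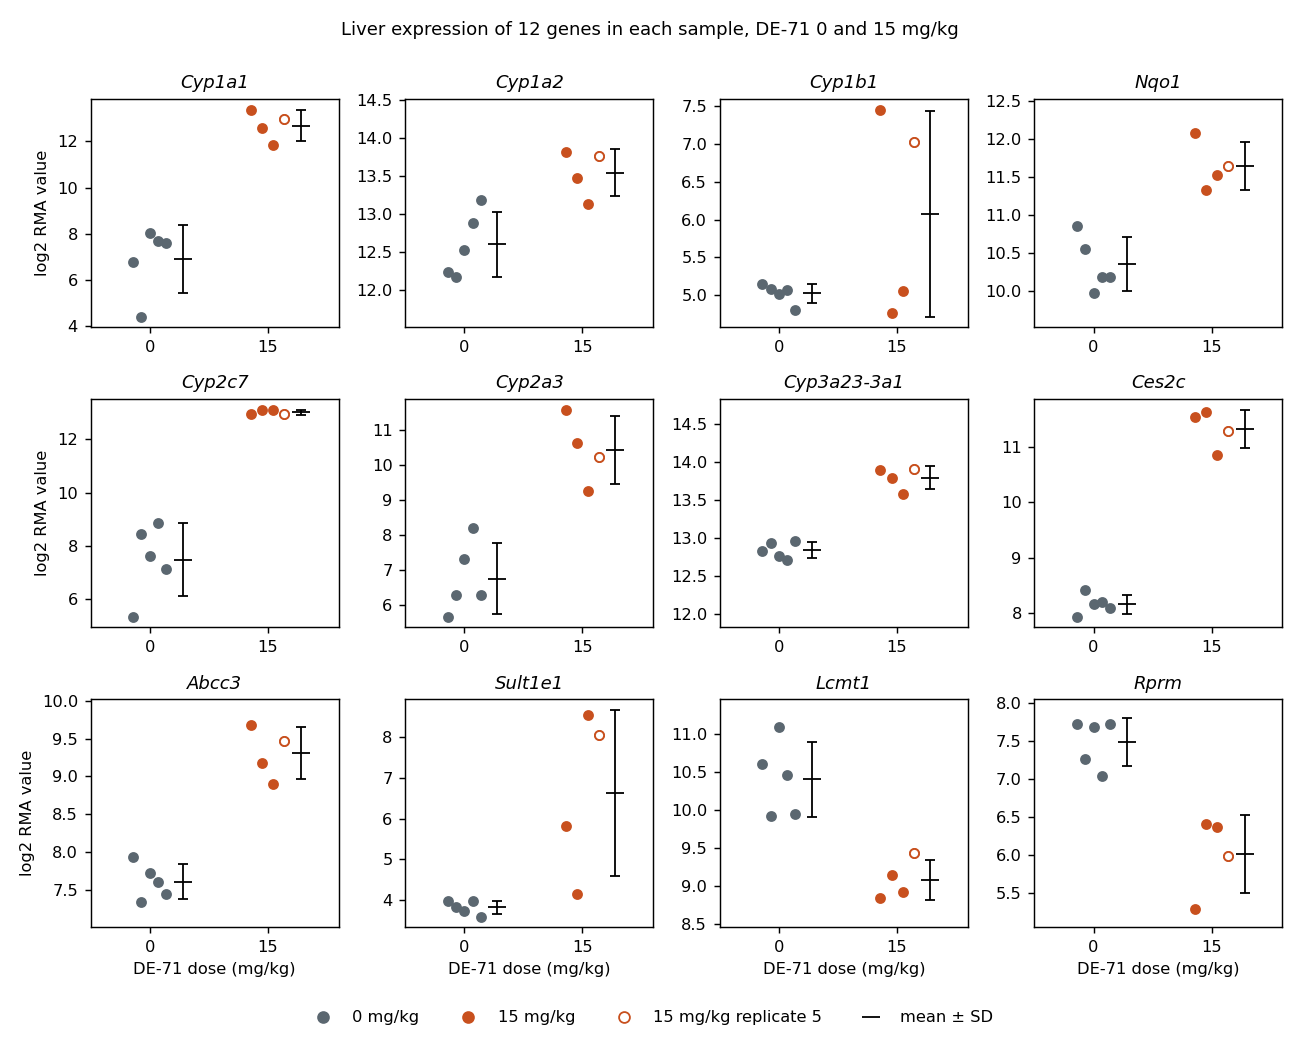
Log2 RMA value (y axis) of 12 genes in each sample at DE-71 0 and 15 mg/kg (x axis), with the group mean ± SD in black. The open circle is 15 mg/kg replicate 5. Treated and control values do not overlap for 10 of the genes, Cyp1a2 overlaps at 1 point, and for Cyp1b1 replicates 3 and 4 lie at the control level.

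The other targets of CAR and PXR gave the densest set of calls. Of 22 measured members 14 rose (against 1.01% of all genes) and none fell, with a median of 1.04, and leaving out replicate 5 left 14 risen. With the DE-71 arrays alone 8 of the 22 rose, and Por, Cyb5a, Sult1b1, Gadd45b, Meox2 and Retreg1 were not called. The list was drawn up with earlier results of these data known, so this count is no independent evidence of its direction. Ces2c, a carboxylesterase that hydrolyses drugs and esters, read 7.93, 8.41, 8.16, 8.19 and 8.09 in the controls and 11.54, 11.63, 10.85 and 11.29 at 15 mg/kg. The groups were separated by more than 2 log2 units and the rise was 9.02-fold (log2 3.17, 2.67 to 3.68, adjusted p = 1.52e-14), the smallest p-value of the comparison. Cltrn, a membrane protein related to the angiotensin-converting enzyme family, lay at the low end of the scale in the controls, at 2.78, 2.84, 2.92, 3.05 and 2.68. In the treated samples it read 6.67, 6.79, 6.21 and 5.03, with replicate 5 lowest (log2 3.32, adjusted p = 3.99e-08; 1.33e-08 without replicate 5). The aldehyde dehydrogenase Aldh1a1 rose 2.40-fold (11.46 ± 0.35 to 12.72 ± 0.10).

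Ephx1, the microsomal epoxide hydrolase, read 12.07, 11.44, 10.81, 10.61 and 11.61 in the controls and 13.20, 12.83, 13.21 and 13.04 in the treated samples, a 3.40-fold rise (adjusted p = 2.10e-05). Again no treated value lay within the control range. Retreg1, a receptor for turnover of the endoplasmic reticulum, rose 5.18-fold on its brighter probe set (log2 2.37, adjusted p = 0.000166) but differed by only 0.30 on the other, so this call depends on the probe set. The receptors themselves showed no change that passed the test: Nr1i3 (CAR) differed by 0.30 (-0.25 to 0.85) and Nr1i2 (PXR) by -0.01 (-0.40 to 0.38). Among 22 nuclear receptors and partners, the transcription factor Cebpb alone was called (1.67-fold up, adjusted p = 0.0140; 0.0594 with the DE-71 arrays alone).

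P450s need heme and electrons, and 5 of 15 measured genes for this supply rose while none fell (median 0.27). Alas1, the rate-limiting enzyme of heme synthesis, read 11.13, 10.26, 10.21, 11.12 and 10.50 in the controls and 12.37, 12.00, 11.79 and 12.00 at 15 mg/kg. The treated samples all lay above the controls (2.63-fold, log2 1.39, 0.92 to 1.87, adjusted p = 9.37e-05). Por, the reductase that feeds electrons to all microsomal P450s, rose 1.97-fold (8.95 ± 0.26 to 9.93 ± 0.35, adjusted p = 0.00671), a call that ended without the averaged replicates 1 and 2 (0.0934). Cyb5a, Pgrmc1 and the biliverdin reductase Blvrb rose by 0.50, 0.36 and 0.51 log2 units, and of these Blvrb was not called without replicate 5 (adjusted p = 0.213). With the DE-71 arrays alone, 1 of the 5 stayed called.

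Conjugation followed the same direction. Of 18 measured UDP-glucuronosyltransferases, sulfotransferases and their cofactor genes 6 rose and none fell (median 0.31), and with the DE-71 arrays alone 3 rose, Ugt2b1, Ugt2a1 and Ugt2b10. Ugt2b1, a CAR- and PXR-driven glucuronosyltransferase, read 12.20, 12.29, 12.42, 12.16 and 12.24 in the controls and 13.40, 13.22, 13.44 and 13.35 in the treated samples (2.13-fold, adjusted p = 1.44e-08). Both groups were tight and separated by 0.8 log2 units. Ugt2a1, Ugt2b10 and Ugt2b35 rose by 1.13, 0.61 and 0.38, of which Ugt2b35 was not called with the DE-71 arrays alone (adjusted p = 0.0738).

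Sult1e1, the estrogen sulfotransferase, was the least even of the large rises. It read 3.96, 3.83, 3.73, 3.97 and 3.58 in the controls, and 5.81, 4.15, 8.54 and 8.06 at 15 mg/kg. Treated replicate 3 lay barely above the controls while replicates 4 and 5 were more than 4 log2 units above them (log2 2.83, 1.57 to 4.08, adjusted p = 0.00631). The call ended without replicate 5 (adjusted p = 0.0764), without replicate 4 (0.114) and with the DE-71 arrays alone (0.562). Without replicate 3 the log2 difference was 3.66. Sult1b1, which sulfates thyroid hormone, rose 2.75-fold (10.55 ± 0.48 to 12.01 ± 0.40, adjusted p = 0.0186), a call held in 6 of the 9 fits without a sample and lost with the DE-71 arrays alone (0.205).

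Glutathione S-transferases join glutathione to electrophiles, and 4 of 19 measured members rose and none fell (median 0.37). With the DE-71 arrays alone 2 rose, Gsta4 and Gstt3. Gstm1, a mu-class enzyme, read 12.89, 11.99, 11.80, 11.76 and 12.28 in the controls and 13.02, 13.01, 12.99 and 13.06 in the treated samples. The treated values were almost level, just above the highest control, replicate 1 (1.83-fold, adjusted p = 0.000332; 0.0665 with the DE-71 arrays alone). Gsta4, which detoxifies lipid peroxidation products, and Gstt3 rose 1.76-fold and 1.81-fold, and Mgst2 rose by 0.55 (adjusted p = 0.0115; 0.0866 with the DE-71 arrays alone).

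In the NRF2 list 5 of 24 measured members rose and none fell (median 0.31), and 4 of the 5 (Abcc3, Gsta4, Ephx1 and Me1) stand on other lists described here as well. Akr7a3, an aldo-keto reductase that removes aflatoxin dialdehyde, went from 7.88 ± 0.79 (n = 5) to 10.10 ± 0.60 (n = 4), and no treated sample lay below 9.29. The rise of 4.67-fold (adjusted p = 0.0239) was not called without replicate 5 (0.103) but was called with the DE-71 arrays alone (0.0157). Me1, the cytosolic malic enzyme that makes NADPH, rose 2.80-fold (adjusted p = 0.0358; 0.0738 without replicate 5), with a difference of 1.84 on its other probe set. The glutathione peroxidase Gpx2 again split the treated samples, at 4.65, 3.16, 6.72 and 7.56, and was not called (adjusted p = 0.257).

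**Figure D3:**
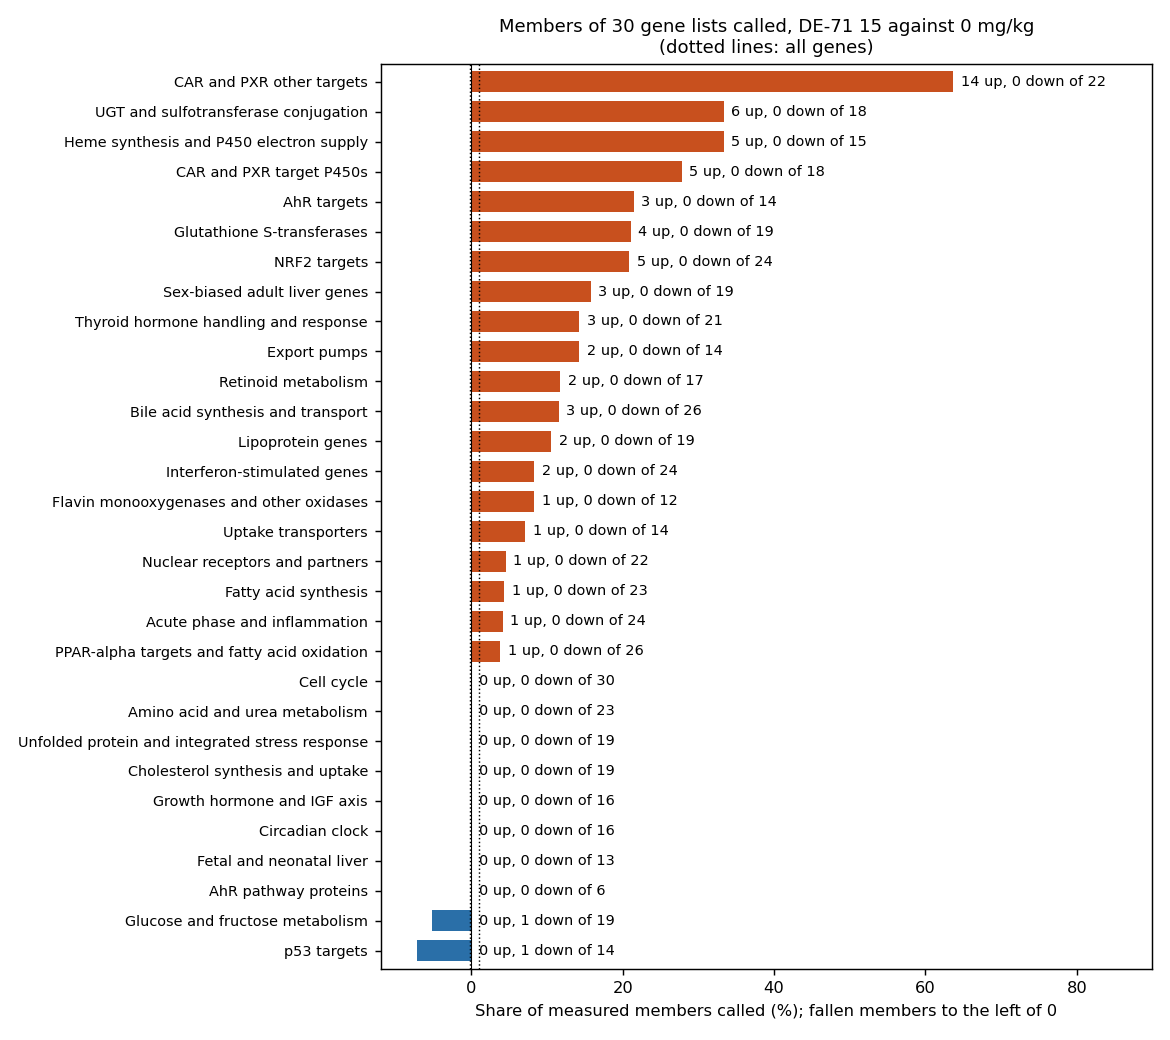
Share of measured members called in DE-71 15 against 0 mg/kg (x axis, percent; risen members in orange, fallen ones in blue to the left of 0) for 30 gene lists (y axis), with the counts beside each bar. The dotted lines mark the share over all genes, 1.01% risen and 0.239% fallen. The longest bar is that of the CAR and PXR targets other than P450s, with 14 of 22, and 8 lists have no called member.

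Of the efflux pumps of the multidrug resistance protein family, Abcc2 and Abcc3 rose, and Abcc1, Abcc4, Abcc5, Abcc6 and Abcc9 were not called. Abcc3, which moves glucuronides from the hepatocyte back to blood, read 7.94, 7.35, 7.73, 7.62 and 7.45 in the controls and 9.68, 9.18, 8.90 and 9.47 at 15 mg/kg (3.23-fold, log2 1.69, 1.20 to 2.19, adjusted p = 4.85e-06). Abcc2, which sends conjugates into bile, rose 1.98-fold (8.47 ± 0.29 to 9.46 ± 0.22, adjusted p = 0.00157). Of 14 measured export pumps these 2 were called, and both stayed called without replicate 5 and with the DE-71 arrays alone. The sterol exporters Abcg5 and Abcg8 differed by -1.08 (-1.91 to -0.24) and -1.13 (-1.99 to -0.27), with adjusted p of 0.284 and 0.276. The P-glycoprotein gene Abcb1a gave 0.67 (adjusted p = 0.163) on the probe set used, while its other probe set gave 0.96 and was called among all probe sets (adjusted p = 0.00503).

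Among 21 genes of thyroid hormone handling and response 3 rose, Slco1b2, Sult1b1 and Me1, and none fell (median -0.01). With the DE-71 arrays alone none of the 3 was called, and without replicate 5 Me1 was not. Slco1b2, a hepatic uptake carrier for organic anions, bile acids and thyroid hormone, read 9.87, 10.28, 9.52, 9.76 and 10.08 in the controls and 10.41, 10.49, 10.68 and 10.36 in the treated samples (log2 0.58, adjusted p = 0.00297; 0.00459 without replicate 5 and 0.198 with the DE-71 arrays alone). It was the only called member of 14 uptake transporters. The deiodinase Dio1 differed by 0.13 (-0.50 to 0.75), the thyroid-responsive Thrsp by -0.40 (-1.33 to 0.52), and the carrier Ttr by -0.02 (-0.11 to 0.07). None of the 3 was called.

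Lipid genes moved little as groups. Of 26 measured genes of fatty acid oxidation and PPAR-alpha response 1 rose, the fatty acid hydroxylase Cyp4a8 (5.42 ± 0.37 to 7.34 ± 0.52, 3.78-fold, adjusted p = 0.0101), and the list median was 0.09. Of 19 lipoprotein genes 2 rose: Apoa2, a high-density lipoprotein protein, and Lpl, lipoprotein lipase. Apoa2 read 9.30, 10.47, 10.77, 11.33 and 9.60 in the controls and 11.57, 11.86, 12.51 and 12.23 in the treated samples (3.36-fold, adjusted p = 0.00844; 0.0342 without replicate 5 and 0.0886 with the DE-71 arrays alone). Lpl rose 2.35-fold (adjusted p = 0.0354; 0.0948 without replicate 5).

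Scd, the stearoyl-CoA desaturase, had the most negative difference of all genes and was not called. It read 8.44, 5.22, 7.09, 8.60 and 7.35 in the controls and 5.23, 4.95, 5.69 and 5.10 at 15 mg/kg. Control replicate 2 lay among the treated values (log2 difference -2.10, -3.59 to -0.60, adjusted p = 0.213). None of 19 cholesterol synthesis genes was called, with Msmo1 at 0.76 (adjusted p = 0.363) the lowest in p-value. Cyp7a1 and Cyp8b1, enzymes of bile acid synthesis, differed by 0.15 (-0.75 to 1.04) and -0.64 (-1.46 to 0.19), and the 3 called genes of the 26 on the bile acid list were the transporters Abcc3, Abcc2 and Slco1b2.

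The genes that fell were fewer. Of the 34, 2 stood on any of the 30 lists, Tkfc and Rprm, and these lists hold 501 of the 14217 genes tested. Rprm, a p53-induced gene that arrests the cell cycle in G2, read 7.73, 7.26, 7.69, 7.04 and 7.72 in the controls and 5.29, 6.40, 6.37 and 5.98 at 15 mg/kg. It fell by 1.48 on the log2 scale (2.79-fold, adjusted p = 0.000666; 0.0728 with the DE-71 arrays alone), with the averaged replicates 1 and 2 lowest. The best known p53 target, Cdkn1a, differed by -0.31 (-0.87 to 0.25). Lcmt1, the methyltransferase of protein phosphatase 2A, read 10.60, 9.91, 11.10, 10.45 and 9.94 in the controls and 8.83, 9.13, 8.92 and 9.43 in the treated samples, a fall of 1.32 (2.50-fold, adjusted p = 3.91e-06) that was called in each fit without a sample and with the DE-71 arrays alone (0.00932).

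Tkfc, the kinase of the fructose pathway that phosphorylates dihydroxyacetone and glyceraldehyde, read 8.91, 8.49, 8.70, 8.92 and 8.50 in the controls and 7.57, 7.61, 7.65 and 8.04 at 15 mg/kg. It fell by 0.99 (adjusted p = 0.00212), but its other probe set gave 0.02, so the 2 probe sets disagree. Tkfc was the only called member of 19 genes of glucose and fructose metabolism. Qsox1, a sulfhydryl oxidase, fell by 1.10 (adjusted p = 0.0225) with the lowest value, 6.19, in replicate 4, and its other probe set gave -0.48. Lrmda fell by 1.18 and by 0.87 on its other probe set. The remaining large falls were Rpp25, Prelid2, Adgrv1, Acsm3, Cimap1b, Pla1a and Myo7b, between -1.11 and -0.79, none of them called with the DE-71 arrays alone. Of these Prelid2, Adgrv1, Cimap1b and Myo7b were not called without replicate 5 (adjusted p between 0.0724 and 0.114). Qsox1 and Lrmda were not called with the DE-71 arrays alone either (0.534 and 0.339).

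**Figure D4:**
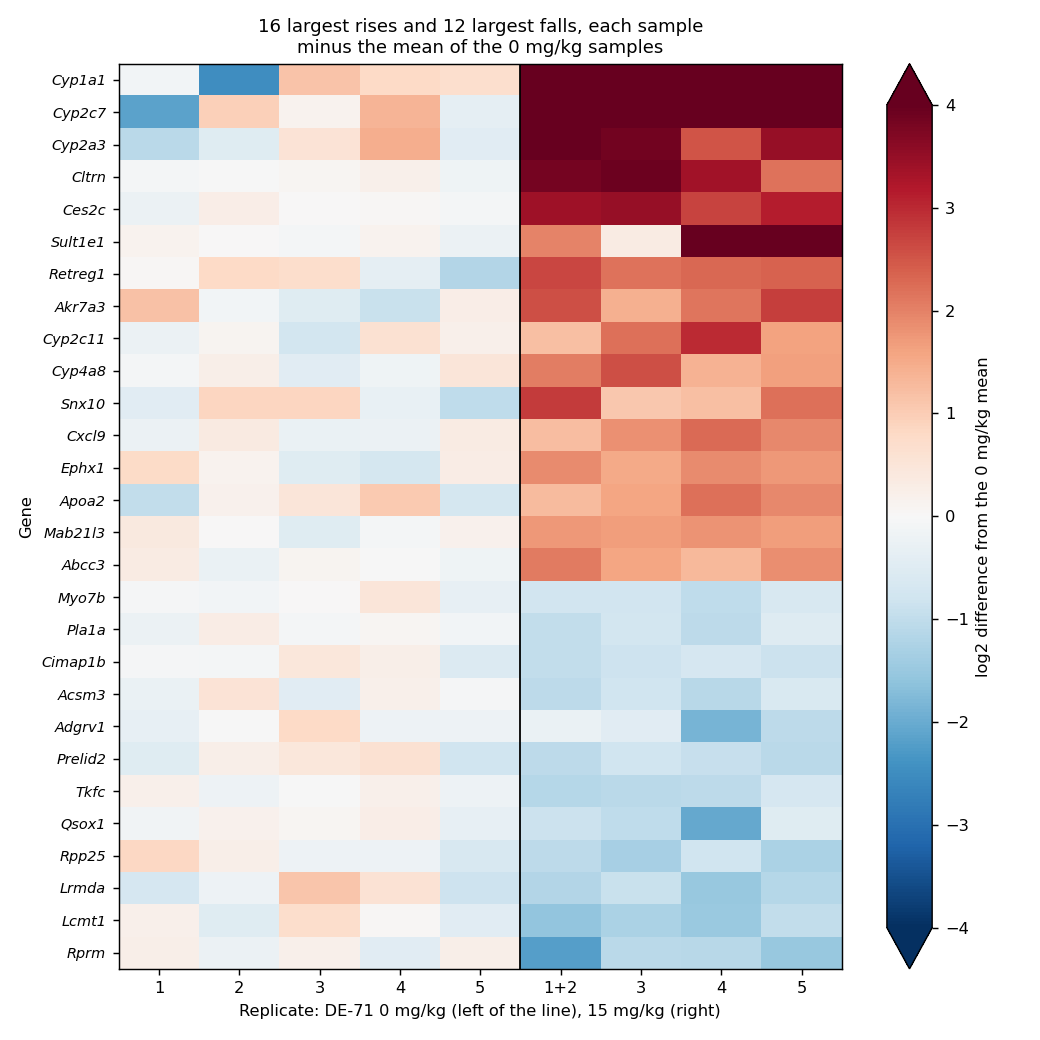
Each row is 1 of the 16 largest rises and 12 largest falls among called genes, each column a sample (5 at 0 mg/kg left of the line, 4 at 15 mg/kg right of it), and the colour its log2 value minus the mean of the controls, from -4 (blue) to 4 (red). Rises are even across the treated samples for Ces2c and Mab21l3 and uneven for Sult1e1, and the control columns differ most for Cyp1a1 and Cyp2c7.

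Immune and growth genes gave few calls. Of 24 interferon-stimulated genes 2 rose (against 1.01% of all genes) and none fell, with a median of 0.27. Differences were above 0 for 20 of the 24, and 9 had an unadjusted limma p below 0.05. Over all 14217 genes these counts were 6260 and 1466. Cxcl9, a chemokine for T cells, read 4.72, 5.34, 4.71, 4.75 and 5.31 in the controls and 6.19, 6.78, 7.24 and 6.88 at 15 mg/kg (3.50-fold, adjusted p = 0.00116), with the same difference of 1.81 on its second probe set. Mx2, an interferon-induced GTPase, rose 1.86-fold (adjusted p = 0.0289; 0.0535 without replicate 5 and 0.388 with the DE-71 arrays alone), and its other probe set gave 0.22. Of 24 acute phase genes, C-reactive protein (Crp) was the only one called (2.26-fold up, adjusted p = 0.0485; 0.0821 without replicate 5). Of 17 retinoid genes Aldh1a1 and Dhrs3 rose, and of 12 flavin monooxygenases and other oxidases Aox1 rose. The calls of Dhrs3 (adjusted p = 0.0447) and Aox1 (0.0427) ended without replicate 5 (0.148 and 0.190) and with the DE-71 arrays alone (0.534 and 0.169).

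Cell cycle genes were all on the lower side without a single call. The 30 measured members had differences from -0.74 to -0.11, with a median of -0.40, against -0.02 over all genes, and 9 had an unadjusted limma p below 0.05. Averaged over the 30 genes, the controls deviated from their own mean by 0.48, -0.15, 0.20, -0.05 and -0.48, and the treated samples by -0.21, -0.46, -0.36 and -0.63. The groups overlapped, since control replicate 5 was lower than 3 of the 4 treated samples. Of the 16 genes of the growth hormone and IGF axis none was called (median -0.31). Lists of amino acid metabolism (23 genes) and the unfolded protein response (19) likewise held no called gene at 15 mg/kg by limma. Nor did those of the circadian clock (16), fetal liver (13) and AhR pathway proteins (6). In this order, 7, 0, 2, 1 and 3 members had an unadjusted limma p below 0.05. Over all 14217 genes, 1466 had such a p-value.

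Markers of other cells were checked because whole liver was used, in which fewer cells of a type and less RNA per cell cannot be told apart. Of 81 measured markers of 9 other cell types and tissues 1 was called. That is near the share over all genes, of which 1.01% rose and 0.239% fell. Epcam, a cholangiocyte and progenitor marker, rose 1.98-fold (8.03, 7.19, 7.92, 7.81 and 7.76 to 8.92, 8.64, 8.58 and 8.79, adjusted p = 0.00311). The other 4 measured cholangiocyte markers, Krt7, Krt19, Spp1 and Cftr, lay between 3.10 and 5.61 in all samples and were not called. The summed cholangiocyte signal, which is mostly Epcam, was 7.79 to 8.39 in the controls and 8.86 to 9.21 in the treated samples. For Kupffer cells and macrophages the summed signal was 11.69 to 12.29 against 11.96 to 12.14, and for lymphocytes 7.95 to 8.28 against 8.03 to 8.21. The part of cell make-up in the results above was not tested.

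The dose series places 15 mg/kg between a dose with no called gene and one with many, all 3 against the same 5 controls. At 0.1 mg/kg limma called 0 genes (0% of the genes tested), with 908 at an unadjusted p below 0.05. At 50 mg/kg 687 genes rose (4.83%) and 761 fell (5.35%), and with each array centred on its median the split was 844 risen and 556 fallen. At 15 mg/kg that centring gave 161 risen and 26 fallen. Among the CAR and PXR targets other than P450s, 14 of 22 rose at 15 mg/kg and 14 at 50 mg/kg. Among interferon-stimulated genes 2 of 24 rose at 15 mg/kg and 15 at 50 mg/kg, and among NRF2 targets 5 and 13 of 24. For Ces2c the log2 difference was 0.75 at 0.1, 3.17 at 15 and 2.85 at 50 mg/kg, and for Cyp1a1 it was 2.36, 5.78 and 6.28.

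One sample at 0.1 mg/kg stood apart and carried part of those low-dose values. Replicate 2 read 12.10 for Cyp1a1, 12.88 for Cyp2c7, 10.42 for Ces2c, 6.31 for Cltrn and 9.47 for Sult1e1. For Cltrn the other 4 samples at 0.1 mg/kg lay between 2.74 and 3.20, and for Sult1e1 between 3.26 and 3.83. Without replicate 2 the 0.1 mg/kg difference was 1.65 for Cyp1a1, 0.63 for Cyp2c7, 0.38 for Ces2c and 0.03 for Cltrn.

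The step from 15 to 50 mg/kg was tested directly, and 28 genes were called (0.197% of the genes tested), 19 higher and 9 lower at 50. Tdh, threonine dehydrogenase, was level at 15 mg/kg (3.72, 3.77, 3.67 and 3.85) and read 5.79, 5.19, 3.91 and 4.80 at 50 (log2 difference 1.17, 0.85 to 1.49, adjusted p = 1.03e-05). Egln3, a prolyl hydroxylase of the hypoxia response, was higher at 50 than at 15 mg/kg by 1.13 (adjusted p = 0.00289), and Aldh3a1, flat at 15 mg/kg, by 1.55 (0.00634). Aldh3a1 split the 50 mg/kg samples, at 6.20, 3.53, 3.91 and 7.10 in replicates 2 to 5. Replicates 3 and 4 thus lay near the values at 15 mg/kg (3.65, 3.26, 3.68 and 3.96). Of the 28 genes Gsta4, higher by 0.57 (adjusted p = 0.0336), was also called at 15 mg/kg. Cyp17a1, a steroid hydroxylase, dropped by 1.39 from 15 to 50 mg/kg and Cyp2e1 by 0.40. For the P450s with the largest rises at 15 mg/kg the step had a wide interval, 0.50 (-0.77 to 1.77) for Cyp1a1 and 0.25 (-1.19 to 1.70) for Cyp2c7.

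These counts turn on single samples. Replicate 4 at 50 mg/kg, near-identical to replicate 5 at 15 mg/kg, was the lowest of its group for Tdh (3.91). Leaving it out gave 531 called genes, 303 higher and 228 lower at 50, with all 28 among them, while leaving out 15 mg/kg replicate 5 gave 37. Without 50 mg/kg replicate 2 the count was 1 (Tdh), without 50 mg/kg replicate 5 it was 48, and without 15 mg/kg replicate 3 it was 2 (Tdh and Egln3). With the DE-71 arrays alone 0 genes were called (841 at an unadjusted p below 0.05).

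**Figure D5:**
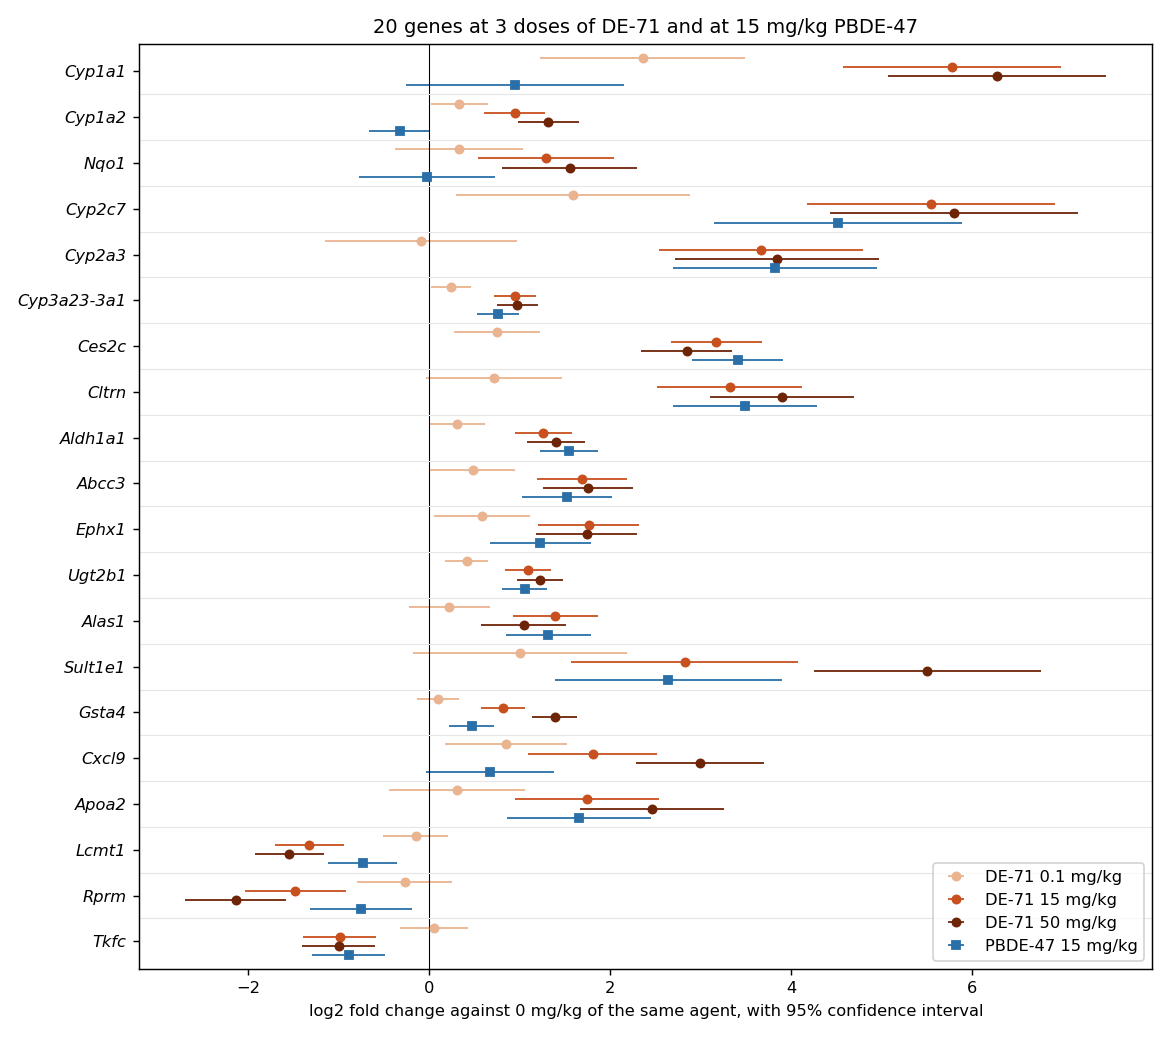
Log2 fold change against the 0 mg/kg group of the same agent (x axis, with 95% confidence interval) for 20 genes (y axis) at DE-71 0.1, 15 and 50 mg/kg and at PBDE-47 15 mg/kg. The 3 DE-71 doses share their controls. PBDE-47 at 15 mg/kg lies near DE-71 at 15 mg/kg for Ces2c (3.41 and 3.17) and far from it for Cyp1a1 (0.95 and 5.78).

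The mixture was then compared with its single congener PBDE-47 at the matched dose of 15 mg/kg, 1 pair of agents, each against its own controls. PBDE-47 called 117 genes, 85 risen (0.598%) and 32 fallen (0.225%). Of these 66 were also called for DE-71, all in the same direction, which is 37.3% of the DE-71 calls and 56.4% of the PBDE-47 calls. Without the 2 arrays that match an array of another dose (DE-71 15 mg/kg replicate 5 and PBDE-47 15 mg/kg replicate 3), 36 genes were shared, 27.3% of 132 and 64.3% of 56. With each agent's own arrays fitted alone 29 were shared, 67.4% of 43 DE-71 calls and 20.6% of 141 PBDE-47 calls, so the order of the shares depends on the arrays fitted.

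The difference between the responses, tested as an interaction, was called for 2 genes (0.0141% of the genes tested), Cyp1a1 and Cyp1a2. Cyp1a1 read 8.97, 10.84, 9.55 and 8.66 in the PBDE-47 controls and 11.19, 8.79, 11.41, 10.42 and 10.44 at 15 mg/kg PBDE-47. Those groups overlapped (difference 0.95, adjusted p = 0.589). Levels are not set across the agents, whose tables look separately normalized. The DE-71 response exceeded the PBDE-47 response by 4.83 (3.13 to 6.54, adjusted p = 0.00557). Each response is taken from its own controls, which read 4.41 to 8.05 for DE-71 and 8.66 to 10.84 for PBDE-47. How far these control values carry the Cyp1a1 difference was not tested. For Cyp1a2 the responses were 0.95 and -0.32, and the difference was 1.27 (0.79 to 1.74, adjusted p = 0.0108).

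Both interaction calls were lost when the DE-71 and PBDE-47 arrays alone were fitted (adjusted p = 0.199 for both, with 547 genes at an unadjusted p below 0.05), while the sizes stayed at 4.83 and 1.27. Both were also lost without PBDE-47 0 mg/kg replicate 2 (0.0706 and 0.0755). Without DE-71 15 mg/kg replicate 5 the Cyp1a1 difference was 4.74 (adjusted p = 0.0253) and the Cyp1a2 difference 1.20 (0.0759). Cyp1a2 alone was lost without DE-71 0 mg/kg replicate 1 (0.0587) or 2 (0.0646), without the averaged DE-71 15 mg/kg replicates 1 and 2 (0.0905), and without the averaged PBDE-47 0 mg/kg replicates 3 and 4 (0.0540).

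For the CAR- and PXR-driven genes no difference between mixture and congener was called, and the intervals say how large one could be. The DE-71 response minus the PBDE-47 response was -0.23 (-0.95 to 0.48) for Ces2c, 0.04 (-0.32 to 0.39) for Ugt2b1 and 0.19 (-0.14 to 0.52) for Cyp3a23-3a1. It was 1.03 (-0.91 to 2.97) for Cyp2c7 and -0.15 (-1.74 to 1.44) for Cyp2a3, where the wide intervals leave room for large differences. Nqo1 differed between mixture and congener by 1.32 (0.25 to 2.38) and Cxcl9 by 1.13 (0.13 to 2.14), intervals above 0 that did not pass adjustment over all genes (adjusted p = 0.967 for both).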

How the data were processed

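The deposited table holds log2 values per probe set, made by the authors with RMA, as named without a version in the submitters' processing notes. Of 31099 probe sets, 57 were controls, 20826 carry 1 gene symbol in the platform annotation, 436 several and 9780 none. A gene was read from its single-gene probe set of highest mean (14217 genes, no filter on dim probe sets). No genome build is named for these files. Value distributions look normalized per agent, so each dose was set against its own 0 mg/kg group. Arrays of 1 group that differed by a root mean square under 0.3 over 300 variable genes were averaged, giving 72 samples. A single model of 15 group means was fitted with limma 3.58.1 in R 4.3.3 (57 residual, 5 prior degrees of freedom), two-sided, with p-values adjusted over all genes within each contrast. Intervals are limma's. Arrays have no counting depth, so their number limits precision.

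Members, lists and alternatives were chosen with earlier results of these data known. Named genes are the 16 largest rises and 12 largest falls, up to 6 called members per list (or the 2 of lowest p), fixed index genes, and up to 8 genes per direction for the 2 differences between doses or agents. The cell type markers, Uty and Xist, and the genes of the closing observations fall outside this rule, and the latter and Epcam were chosen after their values were seen. On simulated data of this comparison the test was checked before use. Alternatives were the choice of arrays in the fit, separate arrays, a second quantile normalization, median centring, a trended robust prior, a filter on dim genes, means over probe sets, a replicate block, and each sample left out.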

Additional observations from a re-analysis of the deposited data

Results flagged for a closer look

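In 9 of 232 tests of the highest or lowest sample of a group, over 116 named genes, 1 sample stood apart from the rest of its group. Chance alone marks about 1 group in 20, a share that 9 of 232 does not exceed. In the DE-71 0 mg/kg group these were the log2 values of Adgrv1 in replicate 3 (7.47), Cyp7a1 in replicate 2 (8.80), Thrsp in replicate 2 (8.92), Igfbp4 in replicate 4 (10.25) and Ugt2b35 in replicate 1 (13.17). In the DE-71 15 mg/kg group they were Mgst2 (11.00), Tiparp (7.25) and Trim2 (8.04) in replicate 3, and Tkfc in replicate 5 (8.04). Replicate 3 at 15 mg/kg held 3 of the 4 treated cases.

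The responses to 15 mg/kg of DE-71 and of PBDE-47 differed for Cyp1a1, by 4.83 log2 units, and for Cyp1a2, by 1.27, in the limma test of the difference itself.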

How the results depend on the processing

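Among the counts and the 116 named genes, 0 results reversed under the alternatives run. For DE-71 15 against 0 mg/kg, where 177 genes were called by limma, the count was 43 with the DE-71 arrays only, 62 with the 2 groups only and 307 with all 74 arrays separate, and leaving out samples moved it between 101 (without 15 mg/kg replicates 1 and 2) and 191 (without control replicate 2). It also fell by over 1.5 times without control replicate 3 (109), control replicate 4 (110) or 15 mg/kg replicate 4 (112). With the replicate number as a block the count was 352. Between the separate 0 and 15 mg/kg arrays, the deviations of like numbers from their group means correlated between -0.16 and 0.08. Whether like numbers share a batch or a litter was not tested. For 50 against 15 mg/kg (28) the counts were 0 with the DE-71 arrays only, 0 with the 2 groups only (644 at an unadjusted p below 0.05), 54 with arrays separate and 9 with genes of mean above 5, and 1 to 531 without a sample, among them 18 without 15 mg/kg replicates 1 and 2 and 17 without replicate 4. The difference between DE-71 and PBDE-47 (2) gave 0 with the arrays of these agents only, 0 with the 4 groups only (754 at an unadjusted p below 0.05), and 0 to 2 without a sample. DE-71 0.1 against 0 mg/kg (0) gave 0 to 1 without a sample: Smad9 without control replicate 3 and Cyp1a1 without 0.1 mg/kg replicate 1. DE-71 50 against 0 mg/kg (1448) gave 350 with the DE-71 arrays only, 118 with the 2 groups only, and 388 (without 50 mg/kg replicate 2) to 1963 without a sample. PBDE-47 15 against 0 mg/kg (117) gave 339 with arrays separate, 366 with the replicate block, and 44 to 116 without a sample, lowest without PBDE-47 0 mg/kg replicates 3 and 4 and next, at 56, without 15 mg/kg replicate 3. Beyond the settings that change the samples or their weights, the causes were not tested. Of the 56 named genes called at 15 mg/kg, 20 kept their call in every setting, and 45 of the 60 not called stayed so.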

Other observations

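The 30 lists, chosen with earlier results of these data known, hold 501 of the 14217 genes tested. Of the 177 called genes 46 stood on at least 1 list and 131 on none. Of all called genes, 35 were called in each fit without a sample and with the DE-71 arrays alone, and some of those on no list are given here, chosen after their values were seen. App, the amyloid precursor protein, read 10.06, 10.23, 9.62, 9.90 and 10.26 in the controls and 11.32, 11.07, 10.93 and 11.08 at 15 mg/kg, with no overlap (log2 1.09, adjusted p = 4.69e-08). Sgpl1, the lyase that ends sphingosine-1-phosphate signalling, rose by 1.30, and Zdhhc2, a protein palmitoyltransferase, by 1.47. Fbxo27, a glycoprotein-binding F-box protein, rose by 1.53, Tsku, a secreted leucine-rich protein, by 1.47, and Sod2, the mitochondrial superoxide dismutase, by 0.61. Cyp39a1, an oxysterol hydroxylase of bile acid synthesis, rose by 1.01 (8.45 ± 0.36, SD, n = 5, to 9.46 ± 0.33, n = 4). The adenylate kinase Ak4 fell by 0.77, from 10.01 ± 0.16 to 9.24 ± 0.18. At PBDE-47 15 mg/kg the differences were 1.07 for App, 1.20 for Sgpl1, 1.79 for Zdhhc2, 0.09 for Cyp39a1 and -0.67 for Ak4.

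The same limma model was also fitted to every probe set except the controls, with p-values adjusted over these probe sets. Of 20826 probe sets with 1 gene symbol 127 rose and 22 fell. Of 436 probe sets that carry several gene symbols 9 rose and none fell, up to a log2 difference of 2.50. Of 9780 probe sets with no symbol 14 rose, up to 3.56, and 1 fell.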
